A study of Capra hircus with 6 samples.

Results

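The voltage-gated potassium, calcium and sodium channels and their relatives were examined in goat medio-basal hypothalamus, the block at the base of the brain that holds the arcuate nucleus and the median eminence. Members were taken by name: every row of the count table whose symbol begins with KCN, HCN, SCN and a digit, or the CACNA, CACNB and CACNG stems, with at least 10 counts in 2 or more of the 4 libraries. That gave 112 genes of the 135 with such names, in a table of 28907 rows, and all 112 entered the test. The name rule is wider than voltage gating, since it also takes inward rectifiers, two-pore-domain channels, calcium-activated channels and auxiliary subunits. By role the members were 27 pore subunits and 5 modifier subunits of the voltage-gated potassium (Kv) channels, 15 potassium channel auxiliary subunits or regulators, 6 calcium- or sodium-activated potassium channels, 13 inward rectifiers, 11 two-pore-domain channels, 4 HCN channels, 7 pore and 13 auxiliary subunits of the calcium (Cav) channels, and 7 pore and 4 beta subunits of the sodium (Nav) channels.

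The libraries came from adult Alpine goats, 5 of them cycling and in the follicular phase in January, and 8 in anestrus, when cycles have stopped, in the middle of May. RNA of each condition was combined into 2 random equimolar mixes, so each library is a pool. The groups are called January and May pools below where both pools are given, pool 1 first. The number of goats in each mix, and whether a goat entered both, is not given in the sources used here. The p-values therefore rest on the spread between pools, 2 in each group, and not on the spread between goats. The fit also shares that spread partly over genes. Season and ovarian state differ together between the groups, and the luteal libraries of the series were not analysed here. Totals ran from 14553821 to 25292678 counts per library, of which the channel genes took 0.395% and 0.401% in the January pools and 0.316% and 0.334% in the May pools.

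As background, voltage-gated sodium channels carry the rising phase of the action potential, Kv channels repolarise the membrane, and calcium channels couple depolarisation to transmitter release and gene expression. Inward rectifiers and two-pore-domain channels set the resting potential in neurons and in glia, and HCN channels carry the depolarising current that paces rhythmic firing. In the medio-basal hypothalamus these currents shape the burst firing of neurosecretory neurons, and potassium channels of astrocytes and tanycytes clear potassium from the extracellular space.

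Of the rows with a channel name, 23 fell short of the count rule, 6 of them at 0 counts in all 4 libraries. The rows nearest to the rule from outside were KCNG2 at 13, 7, 7 and 3 counts, KCNN4 at 11, 3, 7 and 3 counts and KCNG3 at 10, 7, 3 and 3 counts, in the order follicular 1, follicular 2, anestrus 1, anestrus 2. The members with the fewest reads were KCNH1 with 54 counts in all and KCNH3 with 55.

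Most channel genes lay higher in the follicular phase, by a small margin, and no channel gene passed the test on its own. The log2 fold change, follicular minus anestrus, was above 0 for 87 of 112 channel genes, against 49.9% of all 16756 genes tested. Its median was 0.35 for the channel genes and -0.00067 for all genes. At an adjusted p under 0.05 in edgeR's quasi-likelihood test, 0 of 112 channel genes were called, where 0.203% of all genes were. At an unadjusted p under 0.05 there were 23 channel genes (20.5%), of which 21 were higher in the follicular phase and 2 lower. Of all genes tested, 8.55% reached that value, 4.26% higher and 4.29% lower. The levels of both pools of a group lay apart from both of the other group for 73 channel genes (65.2%), 59 higher and 14 lower, where the share over all genes was 38.3%, 17.6% higher and 20.7% lower. With 2 pools against 2, an exact permutation test of any single value cannot give a two-sided p below 0.333.

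**Figure D1:**
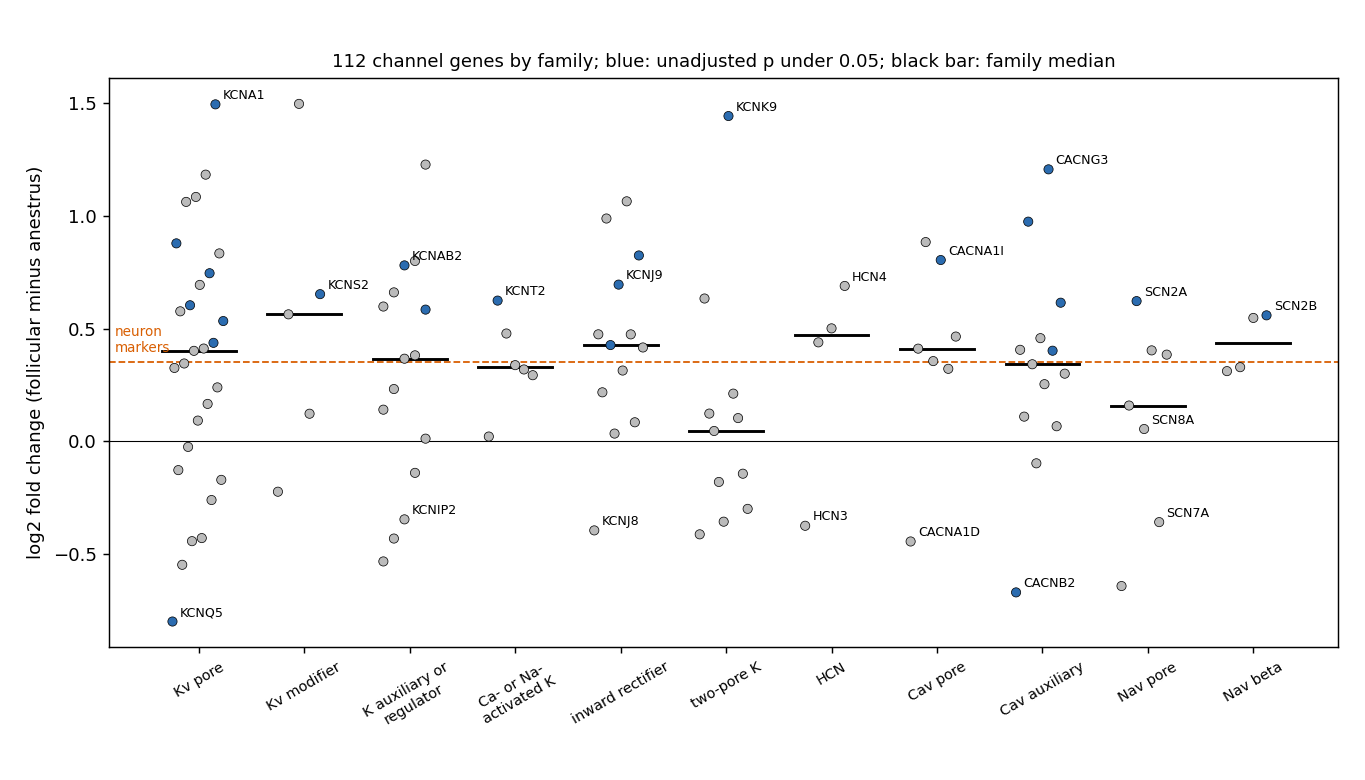
Log2 fold change (follicular minus anestrus) of each of the 112 channel genes, in columns by family, 1 point a gene, blue at an unadjusted p under 0.05 and grey otherwise; black bars are family medians and the dashed line is the median of the neuron markers (0.35). KCNQ5 and CACNB2 are the 2 blue points below 0, and the two-pore-domain family has the family median closest to 0 (0.05; -0.27 when scaled to the neuron markers, then the farthest).

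The other tools gave few calls. DESeq2's Wald test called 3 channel genes (2.68%, where 0.853% of all genes were called), among them KCNAB2, higher, and KCNQ5, lower in the follicular phase. In limma-voom 0 were called (0.179% of all genes), and 24 lay higher and 2 lower at an unadjusted p under 0.05, which is 23.2% of the channel genes beside 9.02% of all genes. Without the filter on low counts, edgeR called 6 (5.36%, where 1.38% of all genes were called), among them KCNAB2, KCNA3 and KCNJ9, higher, and KCNQ5 and CACNB2, lower. Precision followed depth: the median standard error of the log2 fold change was 0.21 for the 66 members with a mean of at least 10 CPM (counts per 1e+06 counts of the library total, after scaling between libraries) and 0.47 for the 46 below it. The median log2 fold change was 0.34 and 0.39 in these 2 sets.

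**Figure D2:**
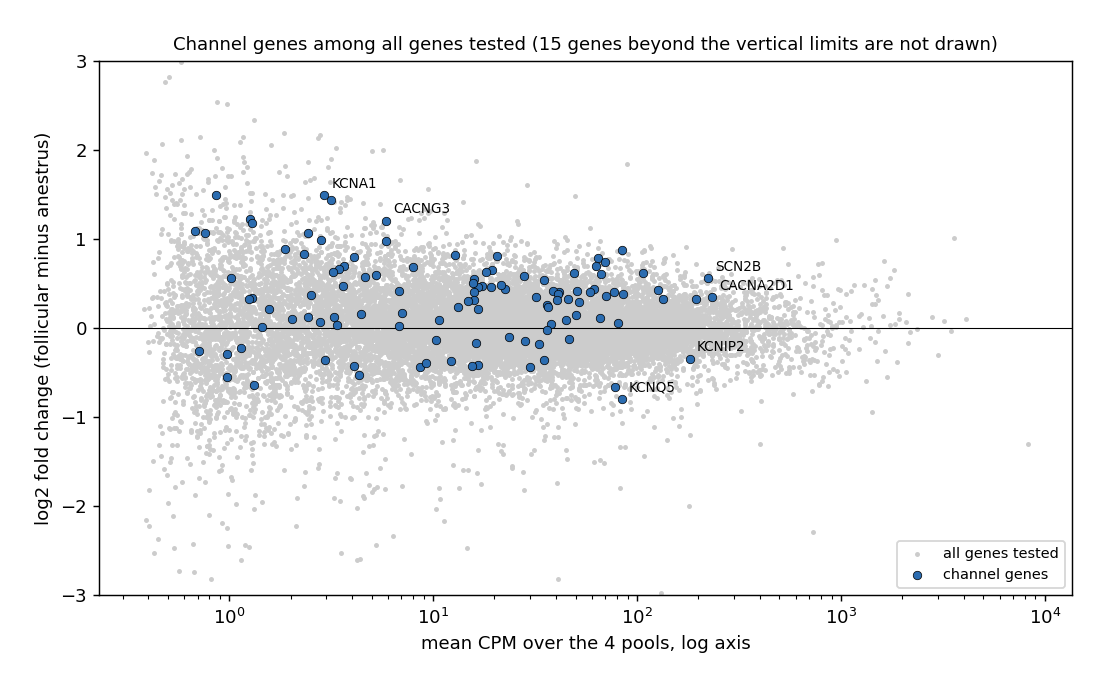
Log2 fold change (follicular minus anestrus) against mean CPM over the 4 pools (log axis) for all 16756 genes tested (grey; 15 lie beyond the vertical limits) and the 112 channel genes (blue). Channel genes sit mainly above 0 at all levels, with KCNQ5 and KCNIP2 below.

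Markers of neurons and of glia lay higher in the same pools as the channel genes. The 12 neuron markers tested all had a positive log2 fold change, with a median of 0.35, equal to that of the channel genes at 2 decimals; 56 channel genes lay above that value and 56 at or below it. The groups did not overlap for 66.7% of the neuron markers and 65.2% of the channel genes, where the share over all genes was 38.3%. Summed over the list, neuron markers stood at 5639 and 6254 CPM in the January pools and at 4939 and 4650 CPM in the May pools. Medians were 0.57 for 10 astrocyte markers, 0.77 for 13 oligodendrocyte markers, 0.70 for 7 oligodendrocyte precursor markers and 0.24 for 11 microglia markers. All markers of these 4 lists had positive values. Pituitary and pars tuberalis markers mostly went the other way, with a median of -0.93 over 11 genes. Of these, 10 were below 0 and LHB was above it (1.48). The groups overlapped for LHB, at 118 and 27.9 CPM in the January pools and at 31.9 and 20.8 CPM in the May pools. Both January pools lay below both May pools for 6 of the 11 markers (54.5%, beside 20.7% of all genes). The summed level of all 11 was 5693 and 4549 CPM in the January pools against 14985 and 11591 CPM in the May pools. Most of that sum was CGA, at 5232 and 4295 CPM against 13142 and 10309 CPM. Tanycyte markers (11, median -0.30) and markers of meninges and fibroblasts (8, median -0.26) also had negative medians, each with 3 members above 0. Medians were positive for endothelium and pericytes (12, median 0.08, 3 members below 0) and for ependyma and choroid plexus (10, median 0.25, 4 members below 0). No listed marker found in the table was at 0 in all 4 libraries. In bulk samples, fewer cells of a type and less RNA per cell cannot be told apart, and the part of these cells in the channel values was not tested.

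**Figure D3:**
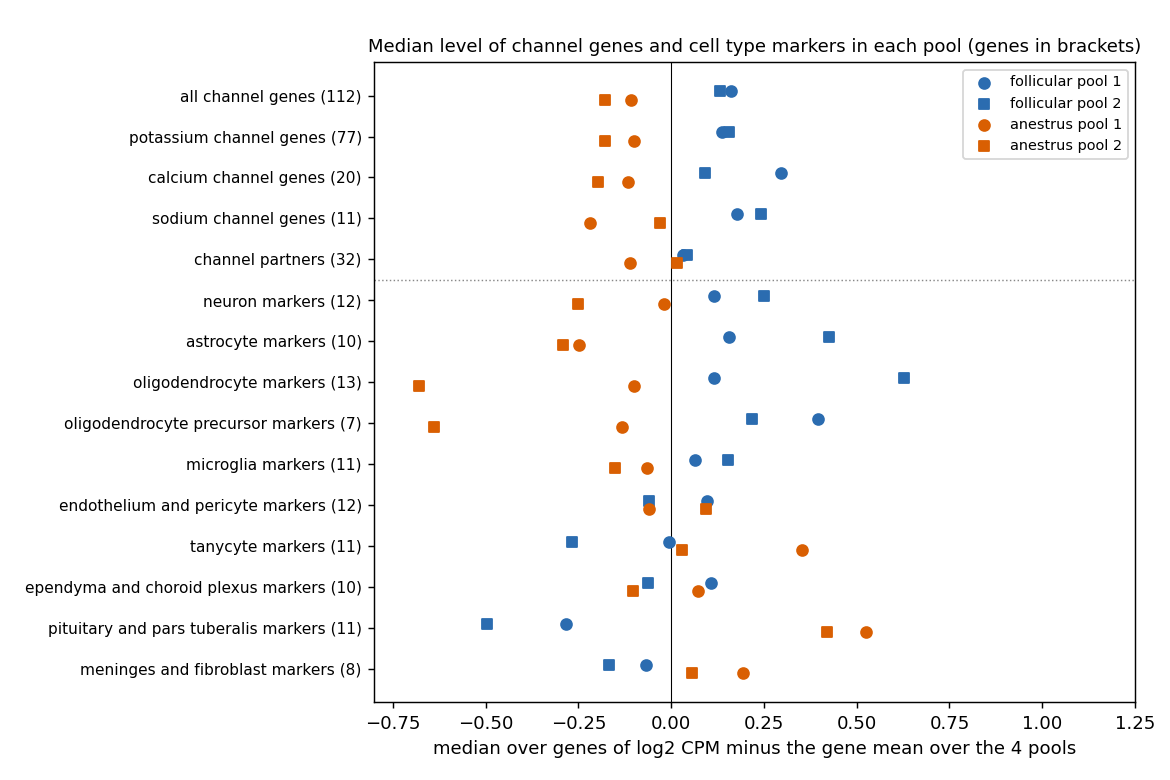
Median over the genes of a list of log2 CPM minus the gene's mean over the 4 pools, 1 point a pool (blue follicular, orange anestrus; circles pool 1, squares pool 2), for channel genes above the dotted line and cell type markers below it. Channel genes were at 0.16 and 0.13 in the January pools and at -0.11 and -0.18 in the May pools; oligodendrocyte markers spread most, and pituitary markers run in the opposite direction.

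When the libraries were scaled to the neuron markers, an alternative chosen after the data were seen, the median of the channel genes was 0.03 and 59 of 112 lay above 0. On that scale the median of all genes tested was -0.33. There, 4 channel genes lay higher in January and 11 lower, at an unadjusted p under 0.05 (13.4% of the channel genes, beside 19.3% of all genes tested). At an adjusted p under 0.05 KCNQ5 and CACNB2, both lower in the follicular phase, were called, among 507 genes in all. KCNQ5 had a log2 fold change of -1.14 ± 0.25 on that scale (adjusted p = 0.00134, edgeR) and CACNB2 of -1.02 ± 0.25 (adjusted p = 0.00678, edgeR). Under the usual scaling their standard errors were smaller, at 0.16 for KCNQ5 and 0.20 for CACNB2. The fit estimated the spread over genes anew on this scale, so the calls do not come from the scaling alone. The part of the new spread in them was not tested. Among the 4 higher genes were KCNA1, CACNG3 and KCNK9, with adjusted p of 0.187 to 0.202 (edgeR). Of the 47 genes named here with a positive value under the usual scaling, 13 lay below 0 on this one, at -0.28 to -0.00064. Where a family's count is given below, the count on this scale follows it.

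The KCNQ genes, whose products form the slow, non-inactivating M-type potassium current that restrains repetitive firing, were split by direction. KCNQ5 (gene 102183979) was at 61.7 and 61.4 CPM in the January pools and at 102 and 112 CPM in the May pools. Both anestrus pools lay well above both follicular pools, and the follicular pools were nearly alike. The log2 fold change was -0.80 ± 0.16, 1.74-fold lower in the follicular phase, and KCNQ5 had the smallest p of all channel genes (adjusted p = 0.134, edgeR's quasi-likelihood test). KCNQ3, which forms mixed channels with other KCNQ subunits, was at 71.9 and 89.1 CPM against 49.1 and 56.8 CPM, with a log2 fold change of 0.60 ± 0.19. Both follicular pools lay above both anestrus pools, the reverse of KCNQ5. Counts of KCNQ5 relative to those of KCNQ3 were 0.858 and 0.688 in the January pools and 2.08 and 1.97 in the May pools. This ratio within each library does not depend on scaling between libraries. Both genes were paired with their values known, so its direction follows from the choice and is no further result. KCNQ1, with 3 to 62 counts per library, had 1.18 ± 0.83 with overlapping groups, and its value ran from 0.33 (without anestrus pool 2) and 0.50 (without follicular pool 1) to 3.39 (without anestrus pool 1).

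**Figure D4:**
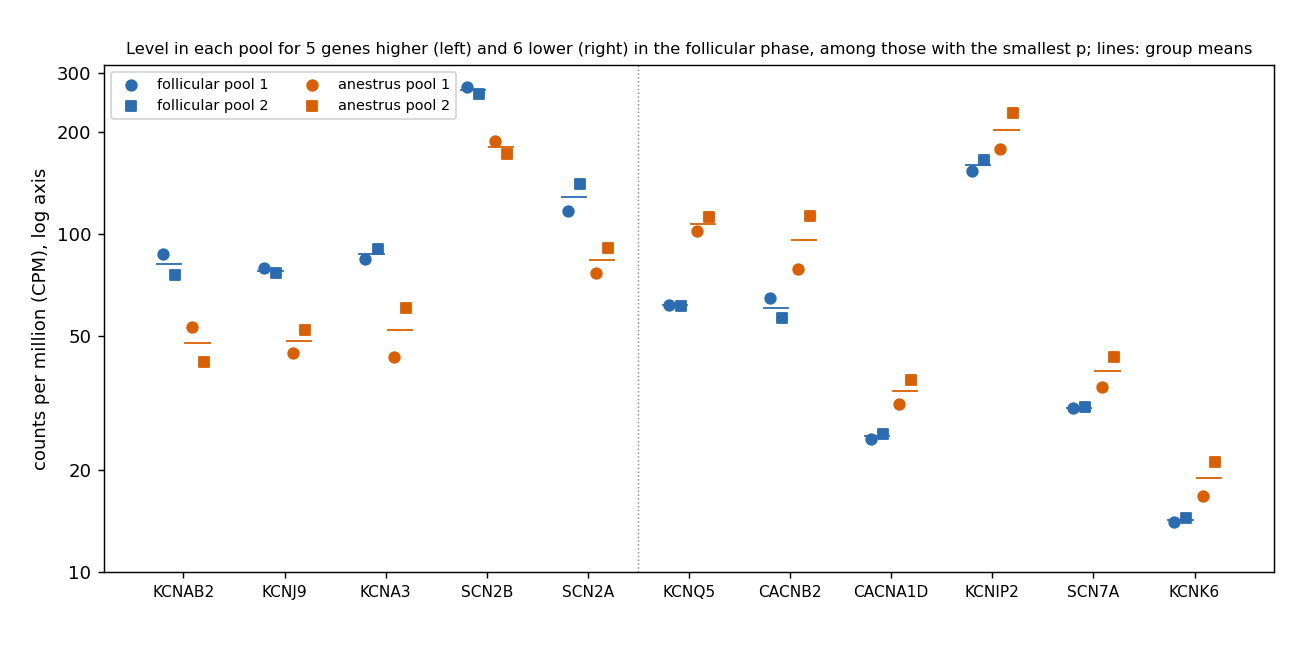
CPM in each pool (log axis) for 5 channel genes above 0 and 6 below 0 among those with the smallest p, follicular in blue and anestrus in orange, circles pool 1 and squares pool 2, short lines the group means. Chosen by p, these genes have groups that lie apart; KCNQ5 is at 61.7 and 61.4 CPM in the January pools and at 102 and 112 CPM in the May pools.

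The direction of KCNQ5 was the same in each of the 14 alternatives run. Its log2 fold change ranged from -1.14 to -0.69, and it was called in 6 of the 14, with adjusted p running from 0.000855 to 0.9997 (edgeR, DESeq2 and limma-voom). Where a pool is left out, its group has no spread of its own.

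Other Kv pore subunits were mostly higher in the follicular phase. Of the 27 in the family, KCNQ genes included, 19 had a positive value (15 when scaled to the neuron markers), with a median of 0.40. At an unadjusted p under 0.05, 6 were higher and 1 lower (25.9%, beside 8.55% of all genes). KCNA3, of the Shaker group, was at 84.3 and 90.2 CPM in the January pools and at 43.4 and 60.6 CPM in the May pools. Both follicular pools lay above both anestrus pools, at a log2 fold change of 0.75 ± 0.20 (adjusted p = 0.266, edgeR). KCNA1 and KCNA2 encode the subunits known from the axon beside the node of Ranvier. KCNA1 had only 70 and 102 counts in the January pools and 23 and 26 in the May pools, 2.75 and 5.93 CPM against 1.61 and 1.44 CPM, with a log2 fold change of 1.49 ± 0.49. KCNA2 was at 2.44 and 3.54 CPM against 0.841 and 2.44 CPM, with 0.83 ± 0.54 and overlapping pools. Its counts were 62 and 61 in the January pools and 12 and 44 in the May pools. Oligodendrocyte markers, whose median was 0.77, lay higher in the same pools, and their part in the KCNA1 value was not tested. KCNA6 was steadier, at 70.8 and 70.5 CPM against 57.6 and 46.9 CPM (0.44 ± 0.18), as was KCNC2, of the Shaw group that allows fast spiking, at 40.6 and 42.5 CPM against 29.7 and 27.8 CPM (0.53 ± 0.20). KCNH2, an ether-a-go-go related channel, varied more within the groups than between them, at 19.6 and 9.06 CPM in the January pools and at 17.9 and 6.66 CPM in the May pools (0.24 ± 0.51).

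Modifier subunits form no channel alone and alter the gating of other Kv subunits. Of the 5 measured, 4 had positive values (3 when scaled to the neuron markers), and KCNS2, the one with the most counts, was at 23.1 and 24.6 CPM against 14.7 and 15.7 CPM (log2 fold change 0.65 ± 0.24, adjusted p = 0.444, edgeR). Of the 15 auxiliary subunits and regulators, 11 had positive values (8 when scaled to the neuron markers). At an unadjusted p under 0.05, 2 were higher and 0 lower (13.3%, beside 8.55% of all genes). KCNAB2 (gene 102181886), a cytoplasmic beta subunit of the Shaker channels, was at 87.3 and 75.6 CPM in the January pools and at 53.2 and 41.8 CPM in the May pools. The groups were apart by more than the spread within either, at 1.72-fold and a log2 fold change of 0.78 ± 0.19 (adjusted p = 0.233, edgeR).

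The KCNIP genes encode calcium-binding proteins that bring Kv4 channels to the membrane, and they too were split. KCNIP2, with the most counts of the auxiliary genes, was at 154 and 166 CPM in the January pools and at 179 and 228 CPM in the May pools (-0.35 ± 0.17, adjusted p = 0.636, edgeR). KCNIP1 was at 31.0 and 36.1 CPM against 25.6 and 19.2 CPM, with 0.58 ± 0.23. KCNIP3 and KCNIP4 had log2 fold changes of 0.80 ± 0.39 and 0.38 ± 0.22. None of the 4 overlapped between groups, where 38.3% of all genes did not, and of these 4 KCNIP2 alone had a negative value.

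**Figure D5:**
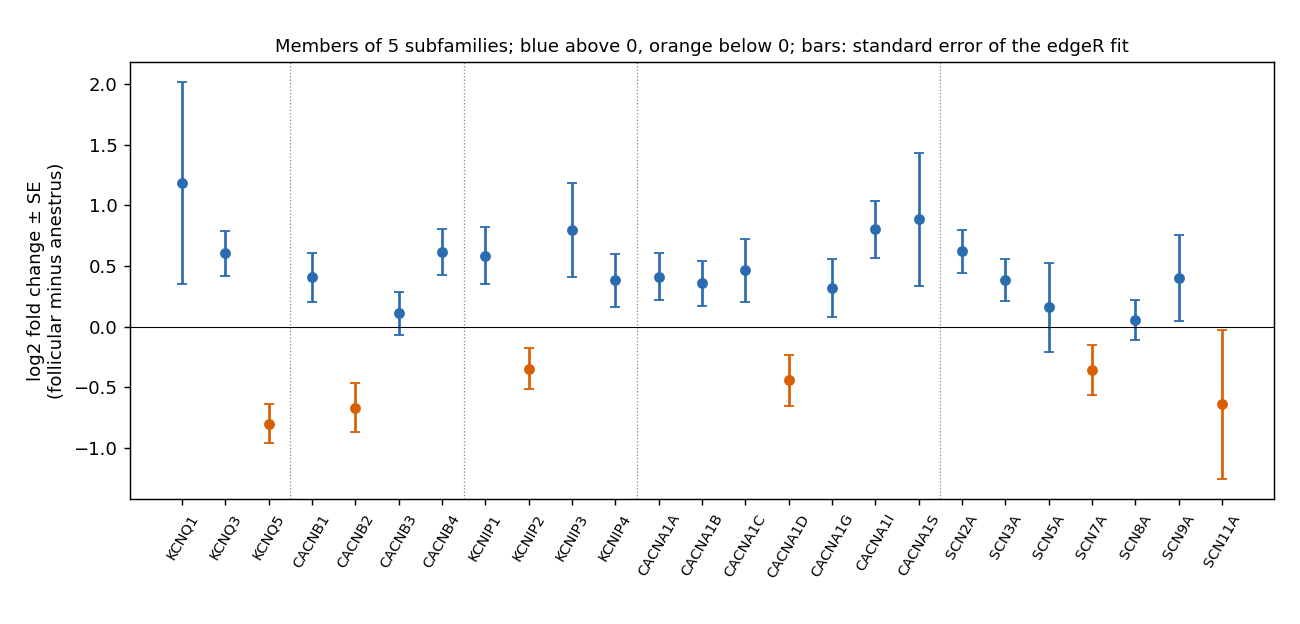
Log2 fold change (follicular minus anestrus) with the standard error of the edgeR fit for members of 5 subfamilies, KCNQ, CACNB, KCNIP, CACNA1 and the Nav pore subunits, blue above 0 and orange below. KCNQ5 (-0.80), CACNB2 (-0.67), KCNIP2 (-0.35), CACNA1D (-0.44), SCN7A (-0.36) and SCN11A (-0.64) lie below 0 while most of their relatives lie above it.

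The 6 calcium- or sodium-activated potassium channels all had positive values, from 0.02 to 0.62, of which 3 stayed above 0 when scaled to the neuron markers. KCNMA1, the large-conductance channel opened by calcium and voltage together, was at 148 and 151 CPM in the January pools and at 107 and 132 CPM in the May pools. Its groups did not overlap, at a log2 fold change of 0.32 ± 0.17 (adjusted p = 0.672, edgeR). KCNT2, a sodium-activated channel, was at 20.4 and 23.5 CPM against 12.6 and 15.8 CPM (0.62 ± 0.26), and KCNN3, a small-conductance channel of the afterhyperpolarisation, had 0.29 ± 0.19.

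Among the 13 inward rectifiers, 12 had positive values (8 when scaled to the neuron markers), with a median of 0.43. An unadjusted p under 0.05 was reached by 3 of them (23.1%, beside 8.55% of all genes). KCNJ9 (gene 102170924), a subunit of the G protein-gated rectifiers through which many hypothalamic peptides and amines inhibit neurons, was at 79.3 and 76.6 CPM in the January pools and at 44.4 and 51.9 CPM in the May pools. The pools of each group lay close together and the groups apart, at a log2 fold change of 0.69 ± 0.18 (adjusted p = 0.244, edgeR). Of its partners in that channel family, KCNJ3 had 0.31 ± 0.20, at 41.0 and 48.6 CPM against 36.9 and 35.1 CPM, and KCNJ6 had 0.08 ± 0.32, with overlapping pools. The differences between these partners were not tested. KCNJ10 and KCNJ16, which combine in astrocytes to buffer potassium, were both higher in the follicular phase. KCNJ10 was at 127 and 163 CPM against 106 and 110.4 CPM (0.43 ± 0.18), and KCNJ16 at 14.9 and 17.7 CPM against 9.74 and 8.66 CPM (0.82 ± 0.28). Of the 10 astrocyte markers, 9 lay higher in both January pools than in both May pools (90%, beside 17.6% of all genes). The exception was AGT, whose pools overlapped. The summed level of the 10 astrocyte markers was 9885 and 10888 CPM in the January pools and 6158 and 6268 CPM in the May pools. The part of astrocytes in the KCNJ10 and KCNJ16 values was not tested.

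The ATP-sensitive channels close when cells are rich in fuel, and they have 2 pore genes. KCNJ11, the pore in neurons and endocrine cells, was at 18.7 and 16.97 CPM against 18.2 and 12.55 CPM (0.22 ± 0.27), with overlapping pools, and at -0.09 when scaled to the neuron markers. KCNJ8, the pore in vascular cells, was at 7.56 and 8.31 CPM against 11.4 and 9.44 CPM (-0.39 ± 0.30) and was the only inward rectifier of the 13 with a negative value. KCNJ13, known from the choroid plexus, was at 4.96 and 3.43 CPM against 3.29 and 2.78 CPM (0.47 ± 0.39).

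The two-pore-domain channels, which carry the background leak of potassium, had the median closest to 0 of the 11 families, at 0.05, with 6 positive values of 11 (2 when scaled to the neuron markers). On that scale their median was -0.27, the farthest from 0 of the 11 families. KCNK1, with the most counts, was at 40.1 and 36.7 CPM in the January pools and at 41.8 and 32.7 CPM in the May pools (0.05 ± 0.21). KCNK9, an acid-sensitive leak channel, had the largest value, 1.44 ± 0.50, from 117 and 80 counts in the January pools and 12 and 45 in the May pools. KCNK6 was at 14.1 and 14.5 CPM against 16.8 and 21.2 CPM (-0.41 ± 0.26), and KCNK2, a channel opened by stretch and lipids, had -0.18 ± 0.20.

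Of the HCN channels, HCN4, the slowest and most strongly modulated by cyclic AMP, had a log2 fold change of 0.69 ± 0.33, and HCN2, whose pools overlapped, had 0.50 ± 0.32. HCN3 was lower in the follicular phase, at 11.3 and 9.94 CPM against 14.5 and 13.1 CPM (-0.37 ± 0.28). None of these 3 genes had an unadjusted p under 0.05.

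Of the 7 calcium channel pore subunits, 6 had positive values (5 when scaled to the neuron markers), with a median of 0.41. CACNA1I, a T-type subunit that opens near rest and supports burst firing, was at 27.5 and 25.2 CPM in the January pools and at 15.6 and 14.6 CPM in the May pools. The gap between the groups was several times the spread within them, at 1.75-fold and a log2 fold change of 0.80 ± 0.23 (adjusted p = 0.311, edgeR). Another T-type gene, CACNA1G, rested on 1 pool: it was at 63.1 CPM in follicular pool 1 and between 38.9 and 41.9 CPM in the other 3 libraries, and its log2 fold change of 0.32 ± 0.24 was -0.06 without follicular pool 1. The presynaptic subunits CACNA1A and CACNA1B, which trigger transmitter release, had 0.41 ± 0.20 and 0.36 ± 0.19. The 2 main neuronal L-type subunits differed in sign, CACNA1C at 25.7 and 19.1 CPM against 14.6 and 17.9 CPM (0.46 ± 0.26) and CACNA1D, which opens at more negative voltages, at 24.7 and 25.7 CPM against 31.5 and 37.0 CPM (-0.44 ± 0.21).

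Of the 13 calcium channel auxiliary subunits, 11 had positive values (6 when scaled to the neuron markers). At an unadjusted p under 0.05, 4 were higher and 1 lower (38.5%, beside 8.55% of all genes). The beta subunits, which bind the pore in the cytoplasm and carry it to the membrane, were split. CACNB2 (gene 102182803) was at 64.5 and 56.5 CPM in the January pools and at 79.0 and 113 CPM in the May pools. The anestrus pools lay apart from each other, with pool 1 nearer to the follicular level, and the log2 fold change was -0.67 ± 0.20 (adjusted p = 0.328, edgeR). CACNB4 was at 57.5 and 61.8 CPM against 35.3 and 42.5 CPM (0.61 ± 0.19), and CACNB1 and CACNB3 had 0.41 ± 0.20 and 0.11 ± 0.18. Within each library the counts of CACNB2 relative to those of CACNB4 were 1.12 and 0.914 in the January pools and 2.24 and 2.67 in the May pools. Both genes were named with their values known, so the direction of this ratio follows from the choice.

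The alpha-2-delta subunits, extracellular anchors that raise the number of channels at the membrane and the target of gabapentin, had similar values in 3 genes. CACNA2D1 was at 242 and 283 CPM against 194 and 220.0 CPM (0.34 ± 0.16), CACNA2D2 at 93.0 and 82.7 CPM against 66.3 and 66.7 CPM (0.40 ± 0.17) and CACNA2D3 at 39.9 and 39.3 CPM against 32.9 and 33.5 CPM (0.25 ± 0.20). None of the 3 overlapped between groups, where 38.3% of all genes did not. When scaled to the neuron markers, CACNA2D1 was at -0.0021 and CACNA2D3 at -0.08. The CACNG genes bear the name of a calcium channel gamma subunit, but several act as auxiliary subunits of AMPA-type glutamate receptors, CACNG3 and CACNG8 among them. CACNG3 was at 8.70 and 7.73 CPM against 4.56 and 2.61 CPM (1.21 ± 0.37, 2.31-fold), and CACNG8 at 9.80 and 5.75 CPM against 5.05 and 2.94 CPM (0.97 ± 0.40).

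Of the 7 sodium channel pore subunits, 5 had positive values (3 when scaled to the neuron markers), with a median of 0.16. SCN2A (gene 102180162), a main brain sodium channel of axons, was at 117 and 141 CPM in the January pools and at 76.6 and 91.2 CPM in the May pools. The groups did not overlap, at a log2 fold change of 0.62 ± 0.18 (adjusted p = 0.301, edgeR). SCN3A, most abundant in immature neurons, had 0.38 ± 0.18. SCN8A, the channel of mature nodes and initial segments, was nearly level, at 80.1 and 84.5 CPM against 76.6 and 81.9 CPM (0.05 ± 0.16), and SCN9A overlapped between groups (0.40 ± 0.35). SCN7A encodes a channel that senses extracellular sodium in glia of the circumventricular organs. It was at 30.7 and 30.7 CPM in the January pools and at 35.3 and 43.3 CPM in the May pools (-0.36 ± 0.21, adjusted p = 0.718, edgeR). The 4 beta subunits, single-pass adhesion proteins that tune sodium channel gating, were measured as well. SCN2B (gene 102182614) was at 273 and 259 CPM against 188 and 173 CPM (0.56 ± 0.16, adjusted p = 0.296, edgeR), and SCN3B and SCN4B had 0.33 ± 0.16 and 0.55 ± 0.28.

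Genes that anchor, traffic or modulate these channels were taken from a separate list of 34, of which 32 were tested. None was called at an adjusted p under 0.05 in edgeR, where 0.203% of all genes were. At an unadjusted p under 0.05, 8 lay higher in January and 2 lower (31.25% of the list, beside 8.55% of all genes). The median log2 fold change was 0.07, with 19 positive values. FGF14, an intracellular fibroblast growth factor that binds sodium channels at the axon initial segment, was at 44.8 and 46.3 CPM in the January pools and at 67.6 and 72.9 CPM in the May pools (-0.63 ± 0.17, adjusted p = 0.296, edgeR). The other 3 with the smallest p lay on the other side. CNTN2, an adhesion protein that gathers Kv channels beside the node, had 0.66 ± 0.19, LGI3, a secreted protein of the same axonal complexes, had 0.65 ± 0.19, and PEX5L, an auxiliary subunit of the HCN channels, had 1.16 ± 0.35 at 6.34 and 7.38 CPM against 3.01 and 3.11 CPM.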

How the data were processed

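The authors deposited whole-number read counts for each gene, not normalized. Per the labels' protocols, TriReagent served for RNA extraction and a stranded mRNA kit for the libraries. Per the submitters' processing notes, the tools were featureCounts 2.0.0 for counting and TopHat2 2.1.1 with Bowtie2 2.3.5.1 for alignment, beside SAMtools 1.9, bcl2fastq 2.20 and FastQC. Genome build, annotation, strandedness in counting and handling of multi-mapped reads: not given in the sources used here. Near-identical or overlapping genes therefore have uncertain counts, and coordinates are left out. The RefSeq gene table (ARS1.2 assembly) held all 112 channel gene identifiers. That table gives no transcript lengths, so levels are compared between libraries and never between genes.

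Genes were kept with edgeR's filterByExpr (minimum count 10, minimum total 15), given TMM factors, and compared by the quasi-likelihood test of edgeR 4.0.16 (R 4.3.3; estimateDisp, robust glmQLFit, glmQLFTest). The model had a mean for each group, leaving 2 residual degrees of freedom. The fit adds to these by sharing spread over genes, so a p-value does not rest on a gene's own pools alone. Benjamini-Hochberg adjustment ran over all 16756 genes tested. Each log2 fold change is followed by its standard error, the change divided by the square root of the F statistic. CPM are counts per 1e+06 of the TMM-scaled library total. Centred list medians used log2 CPM with a prior count of 2. Alternatives were other scalings, filters and tools (DESeq2 1.42.0, limma 3.58.1), a block on pool number, and leaving out each pool. On simulated counts for this comparison over 16730 genes, 38.8% of genes with a 2-fold change and 100% with 4-fold were called, with 7 false among 166 calls. The simulation gave every gene the same set spread and changed only genes with many counts. Its shares therefore do not carry over to members with few counts, or to the spread of the real pools. Library names, which number the anestrus pools in the opposite order to the titles, were used.

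Named genes were those with an adjusted p under 0.05, the 6 in each direction with the smallest p, the one with the most CPM in each family, a fixed list of physiologically studied channels, and the 4 partners with the smallest p; further genes were named with their values in view. Some genes that this rule names are not reported here. The members and lists were chosen with earlier results of these data known.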

Additional observations from a re-analysis of the deposited data

How the results depend on the processing

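Of the values of the 56 named channel genes under the 14 alternatives, 738 of 784 kept their direction and their side of the threshold, 25 passed it and 21 changed sign. Genes called over the whole table, 34 in edgeR, were 300 without the count filter, 143 in DESeq2, 90 and 130 with the replicate block by library and by title numbers, 507 when scaled to the neuron markers, and 4 (without follicular pool 1) to 810 (without anestrus pool 1) with a pool left out. Channel genes called are counted here only where both pools of each group were kept, as a lone pool has no spread of its own. They were 0 in edgeR and in limma-voom, 6 without the count filter (5.36%, beside 1.38% of all genes) and 3 in DESeq2 (2.68%, beside 0.853%). There was 1 with each block (0.893%, beside 0.537% by library and 0.776% by title numbers). When scaled to the neuron markers there were 2 (1.79%, beside 3.03%). Channel genes at an unadjusted p under 0.05, 23 in edgeR, were 47 and 17 with the block by library and by title numbers, 15 when scaled to the neuron markers and 13 to 35 with a pool left out; the shares of all genes at that p, 8.55% in edgeR, were 13.9%, 6.67%, 19.3% and 3.3% to 15.6%. The median log2 fold change of the channel genes, 0.35, was 0.027 when scaled to the neuron markers and 0.321 to 0.39 with a pool left out. The cause of these differences was not tested, except that a group with a pool left out has no spread of its own. Whether pools of the same number share anything more is not given in the sources used here. By library numbers, the differences between pools 1 and 2 of the follicular phase and of anestrus correlated at r = 0.26 over all genes. Over the 112 channel genes they correlated at 0.52, and both values rest on 2 pairs. Title numbers only reverse the sign, to -0.26 and -0.52.

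Without follicular pool 1, log2 fold changes turned to -0.0017 for KCNK1, -0.0562 for CACNA1G, -0.116 for KCNJ6 and -0.403 for KCNH2. Without anestrus pool 1 they turned to -0.0156 for SCN9A and -0.203 for KCNJ6, and without anestrus pool 2 to -0.0768 for KCNK1 and -0.263 for KCNH2. When scaled to the neuron markers, chosen after the data were seen, they turned to -0.0021 for CACNA2D1, -0.026 for KCNMA1, -0.27 for KCNK1, -0.283 for SCN8A, -0.00064 for CACNA1G, -0.0197 for KCNJ3, -0.264 for KCNJ6, -0.0916 for KCNJ11, -0.0231 for KCNH2, -0.21 for CACNB3, -0.0059 for SCN3B, -0.054 for KCNN3 and -0.079 for CACNA2D3. With each pool left out in turn, the highest values of these genes were 0.231 for KCNK1, 1.048 for SCN9A, 0.628 for CACNA1G, 0.499 for KCNJ6 and 1.11 for KCNH2. Depth limits the 46 members under 10 CPM, whose median standard error was 0.47.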
